A study of Mus musculus with 8 samples.

Results

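The Hippo pathway core and TEAD factors are 10 genes chosen by symbol from the 32285 genes of the count matrices: Yap1, Wwtr1, Tead1, Tead2, Tead3, Tead4, Lats1, Lats2, Nf2 and Sav1. Each symbol matched 1 gene identifier, and all 10 were detected in the epithelial cells of every library. In the Hippo pathway, a kinase cascade phosphorylates the coactivators YAP (Yap1) and TAZ (Wwtr1), which are then held in the cytoplasm or degraded. Unphosphorylated YAP and TAZ enter the nucleus and act through the DNA-binding TEAD factors. In stratified epithelia such as the tongue, YAP is known for its part in the growth of basal progenitor cells.

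Single cells from mouse tongue epithelium were sequenced from their 3' ends in droplets, as 8 libraries in 4 groups of 2, at day 15. All mice carried Krt14-CreERT and LSL-rtTA, so that tamoxifen, given into the tongue, activates the Cre in basal keratin-expressing cells and doxycycline then switches on tetON transgenes in those cells and their progeny. Control mice (N) had no oncogenic transgene, E mice had tetON_E6-E7 (the E6 and E7 oncogenes of human papillomavirus), Y mice had tetON_YAP1S127A, and EY mice had both. The S127A change removes a serine that LATS kinases phosphorylate, which gives a YAP that is less restrained by the pathway. Per the study's methods, mice also carried an H2B-GFP reporter, were littermates aged 8 to 16 weeks in sex-balanced groups, and gave cells sorted for viability. The label of N2 names 2 animals, so N2 may pool them, and each library was taken as 1 replicate. The matrices have no feature for either transgene, and the share of Yap1 UMIs that came from the YAP transgene was not analysed here.

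Epithelial cells were defined as cells with at least 0.5% of their unique molecular identifiers (UMIs, the molecule counts) in Krt5, Krt14, Krt15, Krt13 and Krt6a together and with no UMI of Ptprc, the leukocyte gene for CD45. Ptprc-positive cells held at least 1 Ptprc UMI. There were 3447 and 415 epithelial cells in the N pair (replicate 1 before 2, here and below), 4055 and 553 in the E pair, 1289 and 1001 in the Y pair and 170 and 2027 in the EY pair, with 2454816 summed UMIs in EY1, the fewest, and 55154619 in E1, the most. Levels of genes below are CPM, a gene's UMIs per 1000000 UMIs of the sum after TMM scaling, and EY1 is the library in which they rest on the fewest molecules. All 8 epithelial markers that the rule did not use were detected in every epithelial sum, at a summed 4684 to 5907 CPM. Summed markers of other cells also moved with the groups in the epithelial sums. The 6 neutrophil genes summed to 4.56 to 37.9 CPM in N and E libraries. They summed to 128 and 41.8 CPM in the Y pair and 2203 and 616 in the EY pair. All 6 reached 1 CPM in EY1, 3 in Y1 and EY2, and 2 in each other library, so most sums rest on part of the list. The part of such cells in the results was not tested beyond the settings named below. The 6 leukocyte markers summed to 12.5 to 83.1 CPM in the epithelial sums against 3993 to 7542 CPM in the Ptprc-positive sums, and the 4 endothelial markers to at most 0.572 CPM. The 6 fibroblast markers summed to 725 to 1227 CPM in N and E libraries, 805 and 338 in the Y pair and 254 and 28.3 in the EY pair. Only 1 to 4 of these 6 genes reached 1 CPM in a library, 1 in Y1 and EY2 and 2 in N2. These sums thus do not describe the fibroblast list as a whole. Between libraries, 235 of 42314 distinct cell barcodes were shared.

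Promoter sequences are shown, with the short motif that TEAD factors are known to bind, GGAATG (reverse strand CATTCC), for members that moved together and for 1 that did not. The RefSeq table for GRCm38.p6 held promoters of 300 bases, from 250 before to 50 after a gene's start, for 8 of the 10 members, and not for Tead1 and Tead4. Yap1, Wwtr1, Tead3, Lats2 and Sav1 had at least 1 promoter with the motif, whereas Tead2, Lats1 and Nf2 had none. Over all 32851 promoters of this length in the table, 14.7% held it on either strand, and of the 27025 gene symbols 16.6% had at least 1 that did. Lats2 and Tead3 each also have a start site without the motif, and the promoter shown is the one with it or with most copies. Below are the promoters of Yap1 (chr9:8004547-8004846, minus strand) and Lats2 (chr14:57746074-57746373, minus strand), whose levels were higher with the YAP transgene, and of Tead3 (chr17:28350551-28350850, minus strand), whose level was not. Capitals mark the motif, each sequence is on the strand of the gene, and the last 50 bases follow the start.
Yap1: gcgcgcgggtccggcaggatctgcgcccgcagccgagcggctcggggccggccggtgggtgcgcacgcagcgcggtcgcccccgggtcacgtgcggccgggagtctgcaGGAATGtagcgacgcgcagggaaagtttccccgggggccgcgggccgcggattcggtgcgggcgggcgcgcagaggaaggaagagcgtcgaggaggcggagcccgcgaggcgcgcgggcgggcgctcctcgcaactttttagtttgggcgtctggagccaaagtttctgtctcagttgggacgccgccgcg
Lats2: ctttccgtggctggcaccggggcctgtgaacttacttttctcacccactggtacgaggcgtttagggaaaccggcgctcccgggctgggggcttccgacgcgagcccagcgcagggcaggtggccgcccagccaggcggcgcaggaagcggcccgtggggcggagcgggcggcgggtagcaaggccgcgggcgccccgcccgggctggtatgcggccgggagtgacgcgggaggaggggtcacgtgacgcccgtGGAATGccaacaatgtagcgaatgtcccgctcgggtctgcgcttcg
Tead3: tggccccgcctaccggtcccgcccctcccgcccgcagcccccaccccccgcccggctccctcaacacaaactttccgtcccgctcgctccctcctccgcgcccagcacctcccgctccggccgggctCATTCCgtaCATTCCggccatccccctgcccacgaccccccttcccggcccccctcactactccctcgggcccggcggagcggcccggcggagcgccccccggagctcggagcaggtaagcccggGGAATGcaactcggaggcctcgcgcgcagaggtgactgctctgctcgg
The motif lay 141 bases before the start in Yap1, 4 bases after it in Lats2, and at 3 places in Tead3, the most of any member promoter in the table. The match describes these letters only. Binding was not measured in these data. The YAP transgene is switched on through tetON and not through the Yap1 promoter shown. The share of Yap1 UMIs that came from the transgene was not analysed.

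The first comparison asked how the genes differed between the 4 libraries with the YAP transgene (Y and EY) and the 4 without it (N and E), in 1 edgeR model that also held a term for E6-E7. Of the 10 genes, Yap1, Tead1, Tead4 and Lats2 rose and none fell in this fit. Yap1 is the gene whose active form was induced. Its rise, here and for EY and Y against N below, therefore checks the labels only. Over all 13122 genes tested, 9.33% were called, 5.49% higher and 3.84% lower. The median log2 fold change was 0.18 over the 10 genes, Yap1 included, and −0.03 over all genes tested. The libraries with and without the YAP transgene did not overlap in Yap1, Wwtr1, Tead1, Tead4 and Lats2 (higher) and Nf2 (lower). The share of all genes tested that separate in this way was not counted in either cell class. The separation, here and where it is given for single genes below, therefore describes these values only. The plot of levels by group shows each library.

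**Figure D1:**
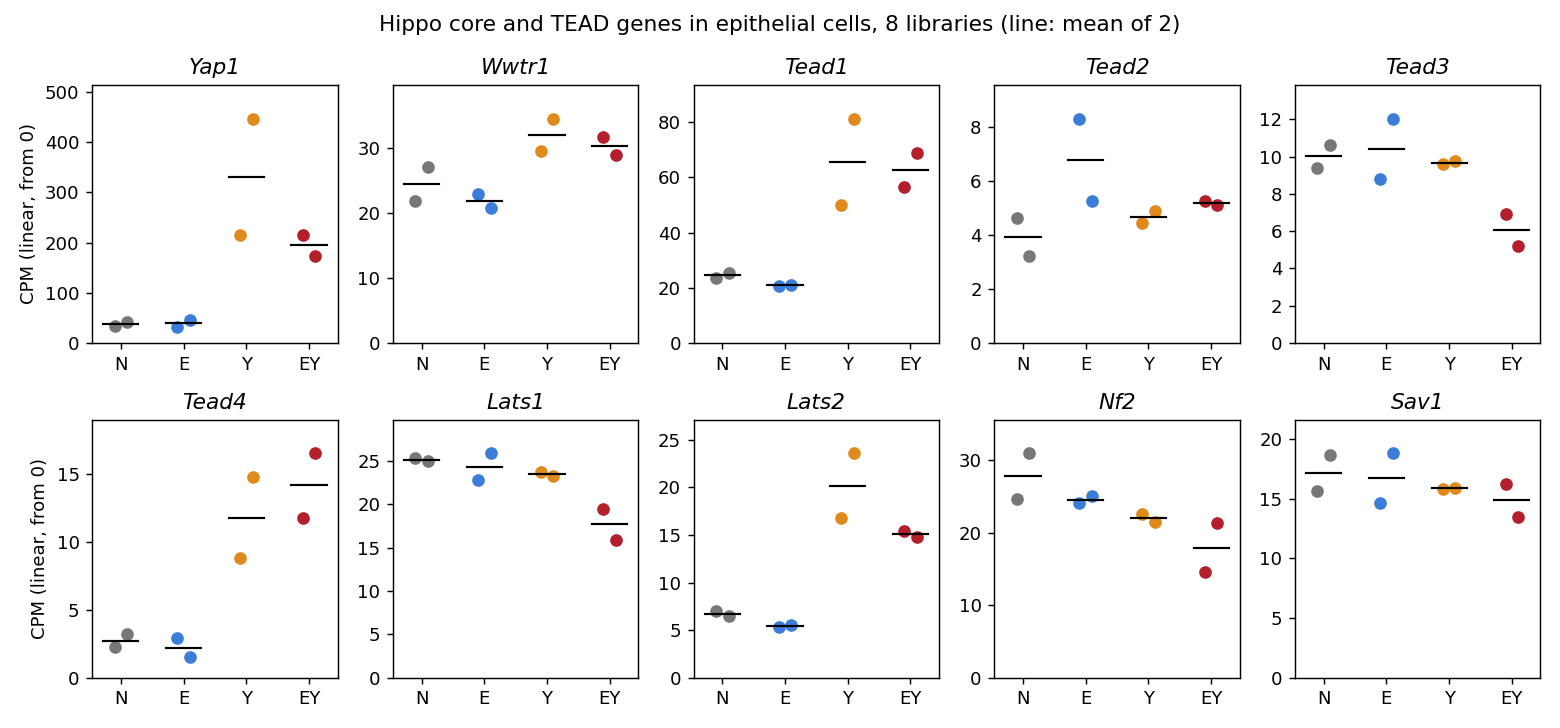
Level of each of the 10 genes in the epithelial cells of 8 libraries, in CPM on a linear axis from 0. Points are libraries and black lines are means of 2. Y and EY points of Yap1, Tead1, Tead4 and Lats2 all lie above every N and E point, and the axes of the 10 panels differ.

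Among the coactivators, Yap1 (ENSMUSG00000053110, GRCm38 chromosome 9, 7931999 to 8004596, minus strand), the gene whose active form was induced, checks the labels. Its level was 34.5 and 41.7 CPM in the N pair, 31.5 and 46.1 in the E pair, 215 and 447 in the Y pair and 216 and 174 in the EY pair. All libraries labelled with the transgene were high and all others low, and Y2 stood above the other 3 high ones. Yap1 rose with the YAP transgene by a log2 fold change of 2.73 (SE 0.29, edgeR adjusted p 0.00295). The mean was 263 CPM ± 124 (SD, n = 4) with the transgene and 38.5 CPM ± 6.68 (SD, n = 4) without it.

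Wwtr1 (ENSMUSG00000027803, chromosome 3, 57455649 to 57575910, minus strand) encodes TAZ, the paralog of YAP. It was at 21.8 and 27.0 CPM in the N pair, 22.9 and 20.7 in the E pair, 29.6 and 34.6 in the Y pair and 31.7 and 28.9 in the EY pair. The 4 libraries with the YAP transgene lay just above the other 4. The log2 fold change was 0.44 (SE 0.12), and the adjusted p of 0.0595 missed the threshold of 0.05. Over the 18 alternatives it ranged from 0.0116 to 0.244, and it passed without Y1 (0.0489) and under DESeq2 (0.0122).

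The 4 TEAD factors bind DNA and recruit YAP or TAZ. Tead1 (ENSMUSG00000055320, chromosome 7, 112679318 to 112906807, plus strand) was at 23.4 and 25.5 CPM in the N pair, 20.8 and 21.0 in the E pair, 49.9 and 81.3 in the Y pair and 56.5 and 68.7 in the EY pair. The lowest library with the YAP transgene, Y1, was above the highest without it, N2. Tead1 rose by a log2 fold change of 1.51 (SE 0.17, edgeR adjusted p 0.00301). Tead4 (ENSMUSG00000030353, chromosome 6, 128224288 to 128300823, minus strand) was at 2.25 and 3.22 CPM in the N pair, 2.91 and 1.51 in the E pair, 8.77 and 14.7 in the Y pair and 11.8 and 16.5 in the EY pair. The groups did not overlap, although the N2, E2 and EY1 values rest on 27, 19 and 29 UMIs. Tead4 rose by a log2 fold change of 2.40 (SE 0.30, edgeR adjusted p 0.00427).

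Tead2 and Tead3 showed no such separation. Tead2 (ENSMUSG00000030796, chromosome 7, 45215753 to 45233644, plus strand) was at 4.62 and 3.22 CPM in the N pair, 8.32 and 5.26 in the E pair, 4.45 and 4.88 in the Y pair and 5.28 and 5.13 in the EY pair. Its highest library was E1, and the other 7 lay between 3.22 and 5.28 CPM. Its log2 fold change with the YAP transgene was −0.08 (SE 0.24, edgeR adjusted p 0.853). Tead3 (ENSMUSG00000002249, chromosome 17, 28331671 to 28350817, minus strand) was at 9.40 and 10.6 CPM in the N pair, 8.78 and 12.03 in the E pair, 9.58 and 9.76 in the Y pair and 6.91 and 5.19 in the EY pair. Both EY libraries were the lowest, while both Y libraries lay within the range of N and E. Its log2 fold change was −0.41 (SE 0.22, edgeR adjusted p 0.227).

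**Figure D2:**
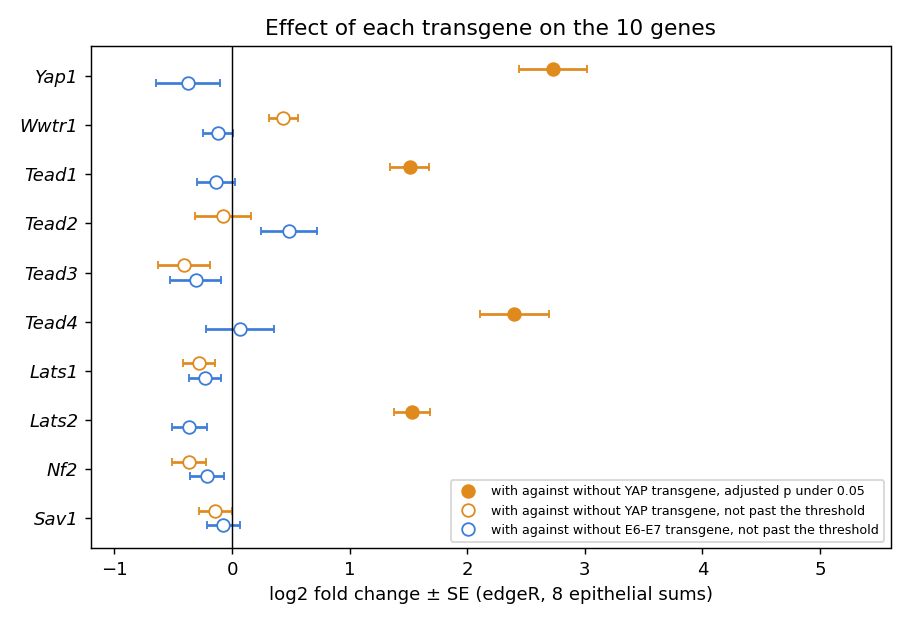
Log2 fold change of each gene with either transgene in epithelial cells, with bars of 1 SE from edgeR. Filled points passed an adjusted p of 0.05: Yap1, Tead1, Tead4 and Lats2 for the YAP transgene, from 1.51 to 2.73, and none for E6-E7, where all points lie between −0.37 and 0.49.

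LATS1 and LATS2 are the kinases that phosphorylate YAP and TAZ. Lats2 (ENSMUSG00000021959, chromosome 14, 57689662 to 57758388, minus strand), which is also a known target gene of YAP, was at 6.99 and 6.43 CPM in the N pair and 5.29 and 5.58 in the E pair. It was at 16.7 and 23.6 CPM in the Y pair and 15.4 and 14.8 in the EY pair. Its lowest level with the YAP transgene was above its highest without it, and it rose by a log2 fold change of 1.53 (SE 0.15, edgeR adjusted p 0.00279). Lats1 (ENSMUSG00000040021, chromosome 10, 7681214 to 7716460, plus strand) was at 25.3 and 25.0 CPM in the N pair, 22.8 and 25.9 in the E pair, 23.7 and 23.3 in the Y pair and 19.5 and 15.9 in the EY pair. Its groups overlapped through Y1 and Y2. The log2 fold change was −0.28 (SE 0.13, edgeR adjusted p 0.188). Over the 18 alternatives the adjusted p of Lats1 ranged from 0.0455 to 0.429, and it was called lower with no upper cell limits (0.0455).

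NF2 (merlin) and SAV1 act upstream, NF2 by bringing LATS kinases to the membrane and SAV1 as the scaffold of the kinases that activate LATS. Nf2 (ENSMUSG00000009073, chromosome 11, 4765845 to 4849536, minus strand) was at 24.7 and 31.0 CPM in the N pair, 24.1 and 25.0 in the E pair, 22.6 and 21.4 in the Y pair and 14.6 and 21.3 in the EY pair. Every YAP library was lower than every N or E library, and the log2 fold change of −0.37 (SE 0.15, edgeR adjusted p 0.127) missed the threshold. Over the 18 alternatives the adjusted p of Nf2 ranged from 0.0365 to 0.279. It was called lower with no upper cell limits (0.0365) and with no cell limits (0.0490). Sav1 (ENSMUSG00000021067, chromosome 12, 69965012 to 69987002, minus strand) was at 15.6 and 18.7 CPM in the N pair, 14.6 and 18.8 in the E pair, 15.9 and 15.9 in the Y pair and 16.3 and 13.5 in the EY pair. Its groups overlapped, with a log2 fold change of −0.14 (SE 0.14, edgeR adjusted p 0.518).

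Yap1, Tead1, Tead4 and Lats2 passed the threshold in all 18 alternatives to this fit. These included cells with no UMI of 6 leukocyte genes, basal-keratin cells only, cells thinned to equal depth and each library left out. Leaving out 1 library gave log2 fold changes of 2.40 to 2.92 for Yap1, 1.37 to 1.68 for Tead1, 2.22 to 2.60 for Tead4 and 1.41 to 1.64 for Lats2. Genes overlapped some members in the annotation: on the same strand, Gm44462 overlaps the span of Tead1 and Gm49361 that of Lats2. How reads in these overlaps were counted was not analysed.

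Across the 8 libraries, the genes whose epithelial levels ran most like Yap1 were Cdh1 (Pearson r of log2 CPM 0.994), Pdlim2 (0.986), Chmp4c (0.982), Agps (0.981) and Plb1 (0.980), out of 5103 genes tested above, detected in each library and averaging 20 CPM or more. For Wwtr1 they were Jup (0.979), Anxa8 (0.971), Dlgap4 (0.968), Ctnna1 (0.964) and Timp3 (0.962). These describe 8 points that share library, depth and group.

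The make-up of the TEAD family in the summed TEAD UMIs of epithelial cells followed the same split. Tead1 took 59.0 and 59.9% of TEAD UMIs in the N pair, 50.9 and 52.7% in the E pair, 68.6 and 73.5% in the Y pair and 70.2 and 71.9% in the EY pair. Tead4 took 3.81 to 7.56% without and 12.1 to 17.3% with the YAP transgene. Tead3 took 21.5 to 30.3% without it and 5.43 to 13.2% with it, and Tead2 7.56 to 20.4% and 4.41 to 6.57%. For each of the 4 genes the libraries with and without the YAP transgene did not overlap. The total behind a share ran from 198 TEAD UMIs in EY1 to 3368 in EY2.

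The mean share of Tead1 was 71.1% ± 2.09 (SD, n = 4) with and 55.6% ± 4.50 (SD, n = 4) without the YAP transgene, a difference of 15.4 percentage points. The differences were 8.28 points for Tead4, −16.1 for Tead3 and −7.60 for Tead2. Each gave a two-sided exact permutation p of 0.0286, the smallest that 70 labellings allow. Adjusted over 8 tests the value was 0.0571, so no share passed the threshold of 0.05. The 4 shares of a library sum to 100% and are not independent. With E6-E7 the shares differed by −3.83 points for Tead1, 3.96 for Tead2, −1.197 for Tead3 and 1.06 for Tead4 (exact permutation p 0.371 to 0.8, adjusted p 0.594 to 0.8).

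**Figure D3:**
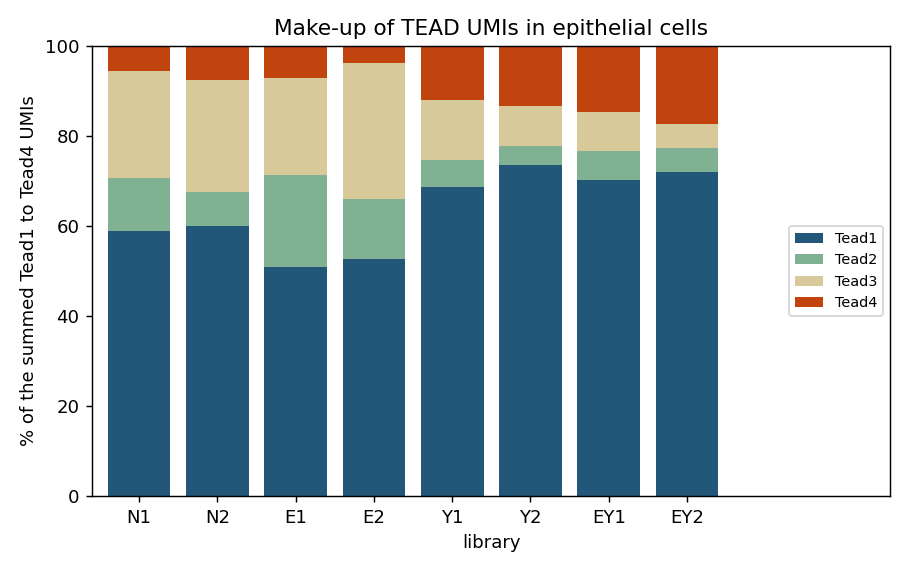
Share of each TEAD gene in the summed Tead1 to Tead4 UMIs of the epithelial cells of each library, as stacked bars that sum to 100%. Tead1 and Tead4 take more of the bar in Y1, Y2, EY1 and EY2 (68.6 to 73.5% and 12.1 to 17.3%) than in the other 4 libraries.

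Levels per cell were compared after thinning each epithelial cell to 2000 UMIs, which left out at most 2 cells of a library. A Yap1 UMI was found in 7.05 and 6.75% of the cells of the N pair, 6.39 and 8.86% of the E pair, 30.9 and 50.05% of the Y pair and 28.4 and 26.9% of the EY pair. The exact 95% intervals, which cover counting error only, were 21.7 to 35.8% in EY1 and 46.9 to 53.2% in Y2. Without thinning the shares were 35.0 to 60.2% without and 63.5 to 87.7% with the YAP transgene. In Ptprc-positive cells thinned the same way, which should not express Krt14-CreERT, the shares ran from 0 to 0.929% without the YAP transgene and from 1.47 to 5.42% with it, at median depths before thinning of 3828 to 10800.5 UMIs against 12575 to 23570 in epithelial cells.

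Cells with at least 2 Yap1 UMIs after thinning numbered 6 and 0 in the N pair, 14 and 5 in the E pair, 102 and 223 in the Y pair and 17 and 108 in the EY pair. No cell of N or E libraries held 3 or more. In the YAP libraries 49.95 to 73.1% of thinned epithelial cells still had no Yap1 UMI. At this depth a cell with none cannot be told apart from one without the transgene product. The other genes that rose were also seen in more thinned cells. Tead1 was seen in 3.61 to 4.93% of cells without and 7.10 to 13.3% with the YAP transgene, Tead4 in 0.395 to 0.723% and 1.71 to 3.21%, and Lats2 in 0.904 to 1.45% and 2.37 to 5.19%.

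**Figure D4:**
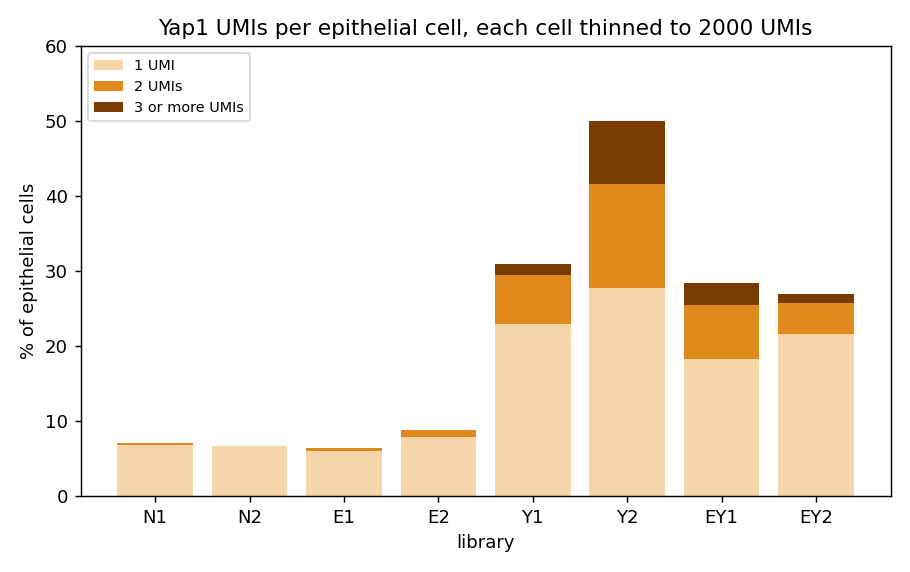
Percent of epithelial cells of each library with 1, 2, or 3 or more Yap1 UMIs after each cell was thinned to 2000 UMIs, as stacked bars. The bars reach 6.39 to 8.86% in N and E libraries and 26.9 to 50.05% in Y and EY libraries, the highest in Y2.

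Within the 4 YAP libraries, thinned epithelial cells with a Yap1 UMI were compared with those without, to ask whether the other genes differed with Yap1 inside a library. Of 8 other members tested, only Tead1 was higher and none was lower, against 0.442% of 8368 genes called, 0.12% higher and 0.323% lower. Tead1 was at 65.8 and 45.4 CPM with and without a Yap1 UMI in Y1, 96.1 and 59.99 in Y2, 59.6 and 34.3 in EY1, and 80.3 and 52.0 in EY2. It was higher in 4 of 4 libraries, on 6 and 8 UMIs in EY1. The log2 fold change was 0.62 (SE 0.14, edgeR adjusted p 0.0104). The call was lost under DESeq2 (adjusted p 0.561), with cells thinned to 1000 UMIs (log2 fold change 0.18), without Y2 (0.149), EY1 (0.0978) or EY2 (0.224), and in other settings, with a range of 0.00832 to 0.962 over 10 alternatives. From the lists of other Hippo genes, Amotl2 (0.57) and Ccn1 (0.41) were higher in the same fit.

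The E6-E7 transgene was compared in the same model, libraries E and EY against N and Y. None of the 10 genes passed the threshold, against 0.434% of genes called over all 13122 tested, all of them higher. In edgeR 1 member, Lats2, had an unadjusted p under 0.05, and DESeq2 called 0 members and 291 genes. The log2 fold changes were −0.37 for Yap1 (SE 0.27, edgeR adjusted p 0.572), −0.12 for Wwtr1 (SE 0.12, 0.687), −0.14 for Tead1 (SE 0.16, 0.723), 0.49 for Tead2 (SE 0.24, 0.462) and −0.31 for Tead3 (SE 0.22, 0.562). They were 0.07 for Tead4 (SE 0.29, edgeR adjusted p 0.947), −0.23 for Lats1 (SE 0.13, 0.508), −0.36 for Lats2 (SE 0.15, 0.427), −0.21 for Nf2 (SE 0.15, 0.556) and −0.07 for Sav1 (SE 0.14, 0.843). For E against N alone, 0 members were called in edgeR against 0.243% of 13555 genes (0.236% higher and 0.00738% lower), 1 (Tead2) had an unadjusted p under 0.05, and DESeq2 called 0. Tead2 was at 8.32 and 5.26 CPM in E1 and E2 and at 4.62 and 3.22 CPM in N1 and N2.

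EY mice, with both transgenes, were then compared with N. Yap1, Tead1, Tead4 and Lats2 were higher and no member was lower, against 18.8% of 13555 genes called, 9.31% higher and 9.5% lower. The log2 fold changes were 2.35 for Yap1 (SE 0.37, edgeR adjusted p 0.0119), 1.37 for Tead1 (SE 0.24, 0.0160), 2.46 for Tead4 (SE 0.42, 0.0149) and 1.16 for Lats2 (SE 0.22, 0.0192). Of the others, Tead3 was at −0.79 (SE 0.26, edgeR adjusted p 0.0657), Nf2 at −0.58 (SE 0.21, 0.0900), Lats1 at −0.54 (SE 0.17, 0.0611), Wwtr1 at 0.31 (SE 0.18, 0.230), Tead2 at 0.37 (SE 0.32, 0.421) and Sav1 at −0.23 (SE 0.21, 0.455). With keratins at least 2%, Tead3 (−1.12, edgeR adjusted p 0.0233), Lats1 (−0.75, 0.0254) and Nf2 (−0.61, 0.0461) were called lower. Tead3 was also called lower with no upper cell limits (0.0457) and Lats1 with no leukocyte UMI (0.0395). Without EY1, Tead3 was at −0.91 and Lats1 at −0.64. No member was called without N1, N2 or EY2, where 5, 271 and 25 genes were called in all, while the fold changes stayed at 2.26, 2.50 and 2.50 for Yap1, 1.34, 1.44 and 1.201 for Tead1, 2.21, 2.71 and 2.15 for Tead4 and 1.27, 1.13 and 1.18 for Lats2. With 2 libraries a group, leaving one out leaves an arm of 1, assumed to vary like the other groups.

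Y was also compared with N, which shares the N libraries with the comparison of EY. Yap1 (log2 fold change 3.12, SE 0.37, edgeR adjusted p 0.0370) and Lats2 (1.58, SE 0.22, 0.0380) were higher. Over all genes tested 0.457% were called, 0.384% higher and 0.0738% lower. Tead1 (1.43, SE 0.24, edgeR adjusted p 0.0602) and Tead4 (2.15, SE 0.41, 0.0864) missed the threshold. Leaving out N1, N2, E1, E2, Y2 or EY1 gave 0 calls, and leaving out EY2 gave 1 (Yap1). The interaction, which asks whether the effect of the YAP transgene differed between mice with and without E6-E7, called 0 members and 0% of genes in edgeR. No member had an unadjusted p under 0.05, and DESeq2 called 0 members and 89 genes. Its values were −0.79 for Yap1 (SE 0.49) and −0.80 for Tead3 (SE 0.34), and between −0.62 and 0.49 for the other members.

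Of 71 other genes of the Hippo pathway (kinases, scaffolds, angiomotins, polarity proteins and cofactors), 62 were tested in the YAP comparison, and 10 rose and none fell. Their median log2 fold change was −0.01. Over all genes tested 5.49% rose and 3.84% fell. The 3 largest fitted rises were those of Vgll3, a TEAD cofactor, Amotl2, an angiomotin that binds YAP, by 3.21 (SE 0.31, edgeR adjusted p 0.00246) and Wwc2, a scaffold of LATS, by 1.43 (SE 0.15, 0.00295). Vgll3 was at 0.178 and 0.477 CPM in the N pair, 0.209 and 0.0797 in the E pair (1 to 12 UMIs a library, so no fold is given), 5.09 and 13.3 in the Y pair and 5.28 and 7.06 in the EY pair. Amotl2 was at 5.599 to 9.22 CPM without and 48.3 to 121 CPM with the YAP transgene, and neither gene's groups overlapped. Of 24 known YAP target genes, a list that includes Lats2 and Amotl2, 22 were tested, 8 rose and none fell, with a median of 0.67. For EY against N, 9 of the 62 other pathway genes were higher and 4 (Taok3, Fjx1, Amotl1 and Pard3, named after their values were seen) lower. Of 23 targets tested there, 5 were higher and 1 lower, with a median of 0.12, against 9.31% of all genes higher and 9.5% lower.

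The same genes were read in Ptprc-positive cells, which the Krt14 driver should not reach, in sums over 663 to 3949 cells of a library. In these sums the leukocyte markers stood at 3993 CPM or more. Keratin-bearing cells were 1.22 to 16.1% of them, and the 8 epithelial markers summed to 174 CPM in EY1, 298 in E2, 448 in N2, 538 in Y1, 1148 in Y2, 1372 in EY2, 1681 in N1 and 1712 in E1. Yap1 was at 11.9 and 1.08 CPM in the N pair, 8.65 and 2.25 in the E pair, 18.0 and 34.0 in the Y pair and 11.9 and 59.996 in the EY pair. Its groups overlapped between N1 and EY1. Sav1 was at 17.0 and 15.5 CPM in the N pair, 18.4 and 17.7 in the E pair, 30.7 and 25.0 in the Y pair and 51.4 and 22.7 in the EY pair, with all 4 YAP libraries above the others.

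In edgeR, 0 of 9 members tested and 0% of 12739 genes were called for the YAP transgene in Ptprc-positive cells. At an unadjusted p under 0.05 stood 2192 genes and 2 members, Yap1 and Sav1, and DESeq2 called 838 genes and the same 2 members. The log2 fold changes were 2.41 for Yap1 (SE 0.83, edgeR adjusted p 0.224) and 0.91 for Sav1 (SE 0.25, 0.168). Yap1 was called in edgeR among cells with keratins under 0.5% of UMIs (3.12, adjusted p 0.0166, against a range of 0.0166 to 0.687 over 17 alternatives). It was also called with no low-count filter (0.0297) and with no cell limits (0.0304), and the part of epithelial cells or their RNA in these values was not tested further. Neutrophil markers summed to 81.0 to 3393 CPM in N and E and to 18563 and 1918 CPM in the Y pair and 119228 and 84703 in the EY pair. Y2 lay within the N and E range of these markers. The part of neutrophils in the Sav1 values was not tested. For E6-E7, edgeR called 0 members and 0% of the 12739 genes, none had an unadjusted p under 0.05, and DESeq2 called 0 members and 43 genes.

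Ptprc-positive cells were also read in T-rule cells (at least 2 UMIs of T cell genes and under 2 of Lyz2, Csf1r, Itgam and C1qa) and myeloid-rule cells (the reverse). In T-rule cells Sav1 was at 16.9 and 11.9 CPM in the N pair, 12.97 and 13.3 in the E pair, 16.9 and 20.3 in the Y pair and 20.9 and 14.2 in the EY pair, and the groups overlapped. In myeloid-rule cells it was at 20.4 and 19.7 CPM in the N pair, 25.3 and 33.0 in the E pair, 43.5 and 30.5 in the Y pair and 53.6 and 27.4 in the EY pair. These also overlapped, through E2. Myeloid-rule cells were 148 to 1567 cells of a library and T-rule cells 214 to 2064.

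Epithelial and Ptprc-positive sums were compared within libraries, with the library as a block. Of the 10 members 9 were called, leaving Tead4 aside, against 74.2% of 14518 genes, 35.7% higher and 38.5% lower in epithelial cells. Higher in epithelial cells were Yap1 (log2 fold change 3.10, SE 0.46, edgeR adjusted p 0.000157), Tead1 (3.04, SE 0.41), Wwtr1 (2.83, SE 0.41), Tead3 (2.83, SE 0.37) and Tead2 (1.78, SE 0.30). Each of these 5 was higher in epithelial cells in 8 of 8 libraries. All 5 passed the low-count filter in Ptprc-positive sums, but some were sparse there. Before thinning, Tead3 was found in only 2 of 1562 Ptprc-positive cells in EY1 and Wwtr1 in 3 of 936 in E2. Tead2 was found in 4 of 1149 in Y2 and Tead1 in 8 of 1356 in N2. The sizes of these folds are therefore imprecise, and the direction is what the libraries share. Nf2 (0.66, SE 0.10) and Lats1 (0.39, SE 0.11) were higher by less, in 8 and 7 of 8 libraries. Tead4 was also higher in 8 of 8, but it rested on 1 to 23 UMIs in Ptprc-positive sums, where it missed the low-count filter, and entered this fit through the epithelial sums. Its fold is therefore not given.

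Lats2 and Sav1 went the other way. In Ptprc-positive sums Lats2 was at 24.0 and 33.3 CPM in the N pair, 21.9 and 24.9 in the E pair, 28.9 and 40.5 in the Y pair and 34.3 and 20.9 in the EY pair. It was lower in epithelial cells in 8 of 8 libraries, by −1.53 (SE 0.23, edgeR adjusted p 0.000184). Sav1 was lower in 6 of 8, by −0.60 (SE 0.20, edgeR adjusted p 0.0174). Without Y1 the adjusted p of Sav1 was 0.0530, and against T-rule cells its difference was 0.20 in the other direction (0.217), within a range of 0.00434 to 0.217 over 16 alternatives.

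**Figure D5:**
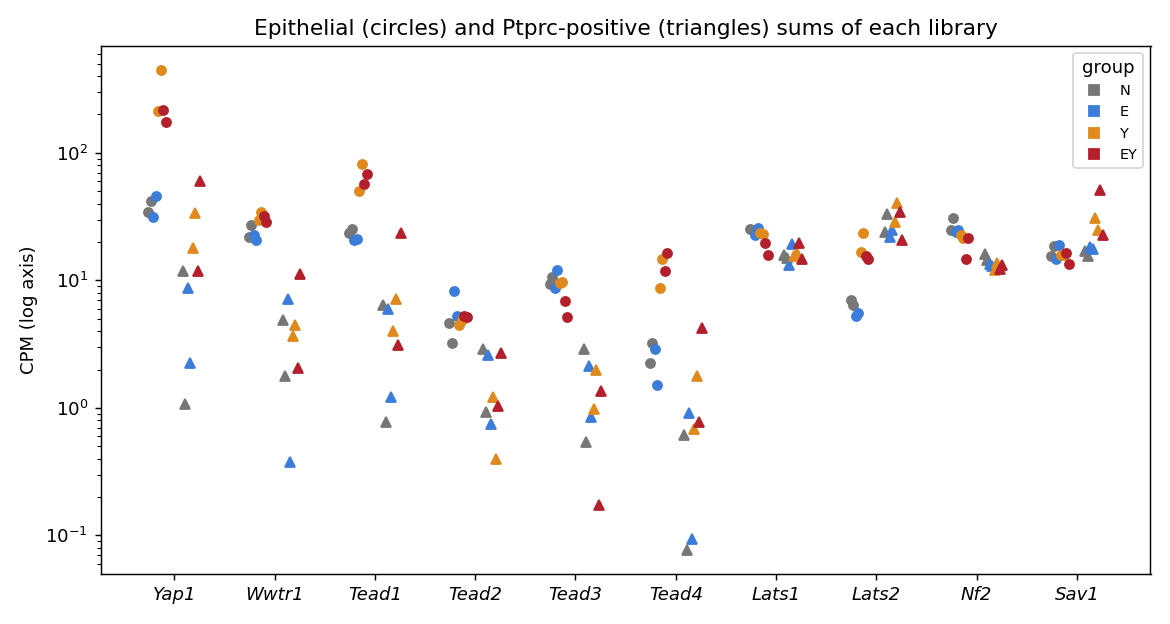
CPM of each gene in the epithelial sum (circles) and the Ptprc-positive sum (triangles) of each library, coloured by group, on a log axis. Circles lie above triangles in each library for Yap1, Wwtr1, the 4 TEAD genes and Nf2, and below them for Lats2.

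Whether the YAP effect itself differed between epithelial and Ptprc-positive cells was tested by an interaction of cell class and transgene. Of the 10 members only Lats2 passed, against 0.372% of 14518 genes, 0.11% higher and 0.262% lower. Its YAP effect was 1.29 log2 units larger in epithelial cells (SE 0.19, edgeR adjusted p 0.0397). The call was lost whichever library was left out (adjusted p 0.0593 to 0.126, with a difference of 1.19 to 1.39). Sav1 went the other way, at −0.96 (SE 0.24, edgeR adjusted p 0.131), and was called under DESeq2 and with no cell limits. For Yap1 the difference was 0.20 (SE 0.92).

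Last, epithelial cells with more UMIs of Krt5, Krt14 and Krt15 than of Krt13 and Krt4 (basal-keratin cells, 86.3 to 95.6% of epithelial cells) were compared with the rest. Krt5, Krt14 and Krt15 are known as keratins of basal cells and Krt13 and Krt4 of differentiating ones, and the split was not checked against other markers of these layers. Tead2, Tead1 and Sav1 were called higher in basal-keratin cells and no member was lower, but the call of Tead2 is set aside below. The count of 3 of 10 is near the background, since 29.7% of 12647 genes were called, 17.3% higher and 12.4% lower. Tead2 was at 5.25 against 0.656 CPM in N1, 3.32 against 0 in N2, 8.66 against 5.46 in E1 and 5.36 against 2.76 in E2. It was at 4.66 against 1.94 CPM in Y1, 5.51 against 0.350 in Y2, 5.57 against 0 in EY1 and 5.25 against 1.25 in EY2. The other cells held 0 to 5 Tead2 UMIs in 7 libraries and 44 in E1, so single values there are imprecise. Their sums held 387560 UMIs in N2 and 139108 in EY1, so a 0 there says little and directions are not counted.

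Tead2 passed the low-count filter through the basal-keratin sums, so its edgeR call (adjusted p 0.00161) and its fold rest on a nearly empty class and are not read further. The log2 fold changes of Tead1 (0.57, SE 0.17, edgeR adjusted p 0.0189) and Sav1 (0.44, SE 0.14, 0.0328) each pointed the same way in 7 of 8 libraries. Both calls were lost without N1 or without E1. That of Sav1 was also lost without E2 or Y2 and with Krt13 alone in place of Krt13 and Krt4. Without N2, 5 members were called, Tead2 among them. Yap1 was at 35.5 and 26.0 CPM in basal-keratin and other cells of N1, and at 437 and 445 CPM in those of Y2, and it was higher in basal-keratin cells in 5 of 8 libraries.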

How the data were processed

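The deposited matrices hold UMI counts per gene and cell barcode, which the authors made with Cell Ranger 5.0.0 on the mm10 build, 1 matrix per library and unscaled. Summed UMIs per library ran from 46483469 to 102427359 over 2916 to 8139 barcodes. The study's limits (1000 to 5500 genes per cell, no more than 30000 UMIs, mitochondrial UMIs up to 7%) left 25199 of 42550 barcodes. The upper limits on genes and UMIs alone removed epithelial cells unevenly. They removed 74 and 326 of the N pair, 130 and 391 of the E pair, 608 and 587 of the Y pair and 311 and 435 of the EY pair. In EY1 they removed more epithelial cells than the 170 that were kept. No doublet caller was run. The members, gene lists and tests were chosen with earlier results of these data known.

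Counts were summed per library and cell class and tested over all genes by the quasi-likelihood test of edgeR 4.0.16 (R 4.3.3) after filterByExpr and TMM scaling, with Benjamini-Hochberg adjustment and a threshold of 0.05. The SE of a log2 fold change is its size divided by the square root of F. Marker sums are CPM without TMM scaling. The YAP and E6-E7 effects came from an additive model, and the comparisons of single groups and the interaction from a model with 4 group means. The scripts were tested on simulated data with known answers. The study's methods name littermates, but the labels do not say which libraries share a litter or day. Litter and day were therefore not modelled, and p-values measure the spread between these libraries. Alternatives were DESeq2 1.42.0, RLE scaling, no low-count filter, other limits on cells and each library left out. Named genes were all 10 members with their values, fold changes of all in the YAP, E6-E7 and EY against N comparisons and elsewhere of those past the threshold, the 3 largest rises and falls of the other pathway genes, and the 5 genes most like Yap1 and Wwtr1. Fold changes of Yap1 and Sav1 in Ptprc-positive cells and of Tead1 and Tead4 for Y against N were added after their values were seen. So were the interaction values of Yap1 and Tead3, and Amotl2 and Ccn1 beside Tead1. Gene positions are from GENCODE vM21, which held 32158 of 32285 identifiers (99.6%).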

Additional observations from a re-analysis of the deposited data

Results flagged for a closer look

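The effect of the YAP transgene on Lats2 differed between the epithelial and Ptprc-positive cells of the same libraries, by 1.29 log2 units in the test of that difference (edgeR adjusted p 0.0397). In epithelial cells Lats2 was at 5.29 to 6.99 CPM without and 14.8 to 23.6 CPM with the transgene, and in Ptprc-positive cells at 21.9 to 33.3 and 20.9 to 40.5 CPM. The difference was 1.47 against Ptprc-positive cells with keratins under 0.5% of UMIs and 1.80 against T-rule cells, and its adjusted p ran from 4.93e-06 to 0.126 over 16 alternatives.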

How the results depend on the processing

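No paired analysis was possible because the labels number animals and give the groups no shared replicate numbers. Where a value changed, the cause was not tested, also where fewer libraries were used. For the YAP transgene in epithelial cells, 7 members were called with no upper cell limits, and 4 to 5 with 1 library left out. The 7 were Yap1, Wwtr1, Tead1, Tead4 and Lats2, which were higher, and Lats1 and Nf2, which were lower. For EY against N the count was 7 with keratins at least 2% and 0 to 6 with 1 library left out. For Y against N it was 4 under DESeq2, with no low-count filter, with no upper or no cell limits, with keratins at least 2% and with thinned cells, 1 in basal-keratin cells only, and 0 to 3 with 1 library left out. For the YAP transgene in Ptprc-positive cells it was 2 under DESeq2 and with no cell limits, and 1 with no low-count filter or with keratins under 0.5%. The difference of the YAP effect between classes gave 2 under DESeq2 and with no cell limits, and 0 with any library left out. Basal-keratin against other cells gave 5 with no upper or no cell limits and 1 to 5 with 1 library left out, with Tead2 counted each time. Cells with and without a Yap1 UMI gave 0 under DESeq2, at 1000 UMIs, at 2 or more Yap1 UMIs and in basal-keratin cells, and 0 to 1 with 1 library left out. Counts of members for E6-E7, E against N and the interaction stayed at 0 in every alternative run. Over all genes, calls for the YAP transgene in epithelial cells numbered 1224, against 2753 under DESeq2, 3250 with no low-count filter, 6058 with no upper and 6205 with no cell limits, and 315 to 1745 with 1 library left out. With 1 library left out, calls for EY against N (2550 with all libraries) ranged from 5 to 4061, those for Y against N (62) from 0 to 98 and those for E6-E7 (57) from 1 to 41. DESeq2 called 457 genes for Y against N and 291 for E6-E7.

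Signs turned only for differences that were not called, apart from Sav1 between cell classes (0.20 against T-rule cells). Tead2 with the YAP transgene was at 0.13 without E1, 0.03 without EY2 (−0.22 to 0.13 over all libraries left out), 0.0716 with keratins at least 2% and 0.00596 in thinned cells. For E6-E7, Tead4 was at −0.06, −0.13 and −0.11 without E1, Y1 and EY2 (−0.13 to 0.24 over all), −0.16 with no upper limits and −0.17 with no cell limits. Nf2 was at 0.0482 in thinned cells, and Sav1 at 0.0290, 0.0617 and 0.0150 with no upper limits, no cell limits and keratins at least 2%. Sav1 for EY against N was at 0.0135 with no cell limits. The E6-E7 difference in the share of Tead3 was 0.2997, 0.319 and 0.0914 points with no upper limits, no cell limits and no leukocyte UMI, and −5.80 to 2.48 with 1 library left out. That of Tead4 was −0.103 and −0.341 with no upper and no cell limits, and −1.12 to 3.37 with 1 library left out. The shares for the YAP transgene kept their direction in every alternative. EY1, with 170 epithelial cells, limits the lowest genes most: 13 Tead2, 17 Tead3 and 29 Tead4 UMIs.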
